A study of Mus musculus with 6 samples.

Results

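Heme and iron handling was followed through 10 genes of 23049 in the deposited table. They were taken by symbol, and each symbol matched a single row: Hmox1, Blvra and Blvrb of heme breakdown, Slc40a1 and Slc11a1 of iron export and transport, the ferritin genes Fth1 and Ftl1, and Tfrc, Hfe and Ireb2 of iron uptake and sensing. Cells carrying F4/80, a surface protein of mouse macrophages, had been sorted from the acid-secreting corpus of the mouse stomach and profiled by RNA sequencing. L635 mice, whose corpus the submitters describe as intestinalized spasmolytic polypeptide-expressing metaplasia (SPEM), gave 3 libraries, and mice given DMP-777, described as having SPEM, gave the other 3. Both compounds remove acid-secreting parietal cells, and L635, a related compound, lacks the inhibition of neutrophil elastase that DMP-777 has. Strain, genotype, age, dose, treatment time and the number of animals per library were not found in the labels, and no untreated animals were analysed here. Since nothing in the labels says that the libraries of a treatment came from separate animals, p-values measure the spread between these libraries, which may be partly technical.

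Macrophages recover iron from old red cells and damaged tissue. Heme oxygenase opens the heme ring and frees the iron, which is stored in ferritin or leaves the cell through ferroportin, while iron bound to transferrin enters through the transferrin receptor. Iron regulatory proteins tie storage, export and uptake together: when iron is scarce they bind hairpins in mRNA called iron-responsive elements, which blocks translation of ferritin and ferroportin when the hairpin lies before the coding sequence and stabilises the transferrin receptor mRNA when it lies after it. The effect on ferritin is on translation, so that the level of its mRNA does not report it.

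These hairpins are a sequence feature that part of the genes share, and they are shown because they mark the mRNAs under the control of iron regulatory proteins. Transcript sequences of GENCODE M21 (build GRCm38) were searched on the transcribed strand for the loop CAGTGN. The loop had to be preceded by 5 bases that pair with the 5 bases after it (G-T pairs allowed). A C was required directly before this stem, and whether it was unpaired was not checked. Of 21888 coding genes, 1.34% held a match anywhere in a coding transcript and 0.73% held one in an untranslated region. Among the 10 genes 4 held one, each of them in an untranslated region, and Tfrc held 4 copies. The pattern searched for is a known feature of the Fth1, Ftl1, Slc40a1 and Tfrc mRNAs. Matches in these 4 genes were therefore fixed in advance, and the shares over all coding genes are no test of the 10 genes. A match is a description of the letters and no test of binding. Each sequence below is written 5′ to 3′ on the strand of the gene, with the loop in capitals.
Fth1, 5′ untranslated region, chr19:9982731-9982760, plus strand: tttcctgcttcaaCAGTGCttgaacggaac
Ftl1, 5′ untranslated region, chr7:45459779-45459808, minus strand: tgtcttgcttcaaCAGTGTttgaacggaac
Slc40a1, 5′ untranslated region, chr1:45925465-45925494, minus strand: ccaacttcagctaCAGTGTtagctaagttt
Tfrc, 3′ untranslated region, chr16:32631218-32631247, plus strand: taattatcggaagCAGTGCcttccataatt
Tfrc, 3′ untranslated region, chr16:32631597-32631626, plus strand: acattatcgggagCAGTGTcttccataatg
Tfrc, 3′ untranslated region, chr16:32631662-32631691, plus strand: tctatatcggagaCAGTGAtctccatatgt
Tfrc, 3′ untranslated region, chr16:32631709-32631738, plus strand: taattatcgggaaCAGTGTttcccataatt

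Values are RPKM, reads scaled by gene length and library depth, with a lowest listed value of 1 that acts as a floor. Depth, estimated from a weak signal in the values, ran from about 4300000 to 20900000 reads per library, and both ends of that range were L635 libraries. The sorted samples held macrophage and epithelial transcripts together. All 12 macrophage markers lay above the floor in at least 1 library. They summed to 639 to 1334 RPKM in L635 and 923 to 1552 in DMP-777 (p = 0.4 in a two-sided exact permutation test, which cannot give less than 0.1 here), lowest in L635 replicate 3 and DMP-777 replicate 1. The sum of 10 surface mucous cell markers was 2982 to 3526 RPKM in L635 and 5013 to 12606 in DMP-777 (exact permutation p = 0.1), and that of 10 general epithelial markers was 701 to 946 in L635 and 850.2 to 1325 in DMP-777 (exact permutation p = 0.3). Parietal, chief, neutrophil, lymphocyte, mast cell and stromal or endothelial lists overlapped between the treatments, and mast cell markers summed to 1038 RPKM in L635 replicate 1 and to at most 401 in any of the remaining libraries. The F4/80 gene Emr1 itself stood at 97.9, 127 and 41.3 RPKM in L635 replicates 1, 2 and 3, and at 46.1, 88.5 and 94.3 in DMP-777 replicates 1, 2 and 3. In such mixed samples, fewer cells of a type and less RNA per cell cannot be told apart, and how far other cells set the values below was not tested.

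Set against each other, L635 and DMP-777 ask how the sorted corpus cells differ between the form of SPEM with intestinal features and the form without. Each form came with its own compound, and only DMP-777 inhibits elastase, so form and compound cannot be told apart. None of the 10 genes differed at an adjusted p of 0.05 in the limma fit across 12102 genes, where 0% of all genes passed. Ferritin transcripts were among the most abundant in every library, and heme oxygenase was high, whereas the iron exporter was low. At an unadjusted p under 0.05 there was 1 of the 10 genes, the hemochromatosis gene Hfe, lower in L635, against 10.1% of all genes tested by the same limma fit (6.33% lower and 3.78% higher). The 3 L635 libraries lay apart from the 3 DMP-777 libraries for 0 of the 10 genes, against 16.0% of all genes tested (8.75% with L635 below and 7.25% with L635 above). Of the 10 genes 7 had a lower log2 mean in L635 and the median of their log2 fold changes was -0.36, against 49.8% lower and a median of 0.00 over all genes tested, but after quantile normalization only 5 were lower and the median was 0.01. The 5 lower under that scaling were Hmox1 (-0.02), Blvra, Blvrb, Tfrc and Hfe. After median centring 8 were lower with a median of -0.45, and with limma array weights 8 were lower with a median of -0.47. When the fit included the general epithelial level, 9 were lower and the median was -0.23. That fit left 145 of all genes tested at a limma unadjusted p under 0.05, against 1223 in the main fit. With 1 library left out the median lay between -0.47 (DMP-777 replicate 1 omitted) and -0.09 (DMP-777 replicate 2 omitted), and it was -0.15 with L635 replicate 3 omitted. Fold changes also moved with gene length: tested genes up to the median exonic length of 4370 bases had a median of -0.20 and longer ones 0.17, and 7 of the 10 genes are shorter than that median. After each library was corrected for that trend and for GC content, 8 of the 10 genes were lower and their median was -0.14.

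**Figure D1:**
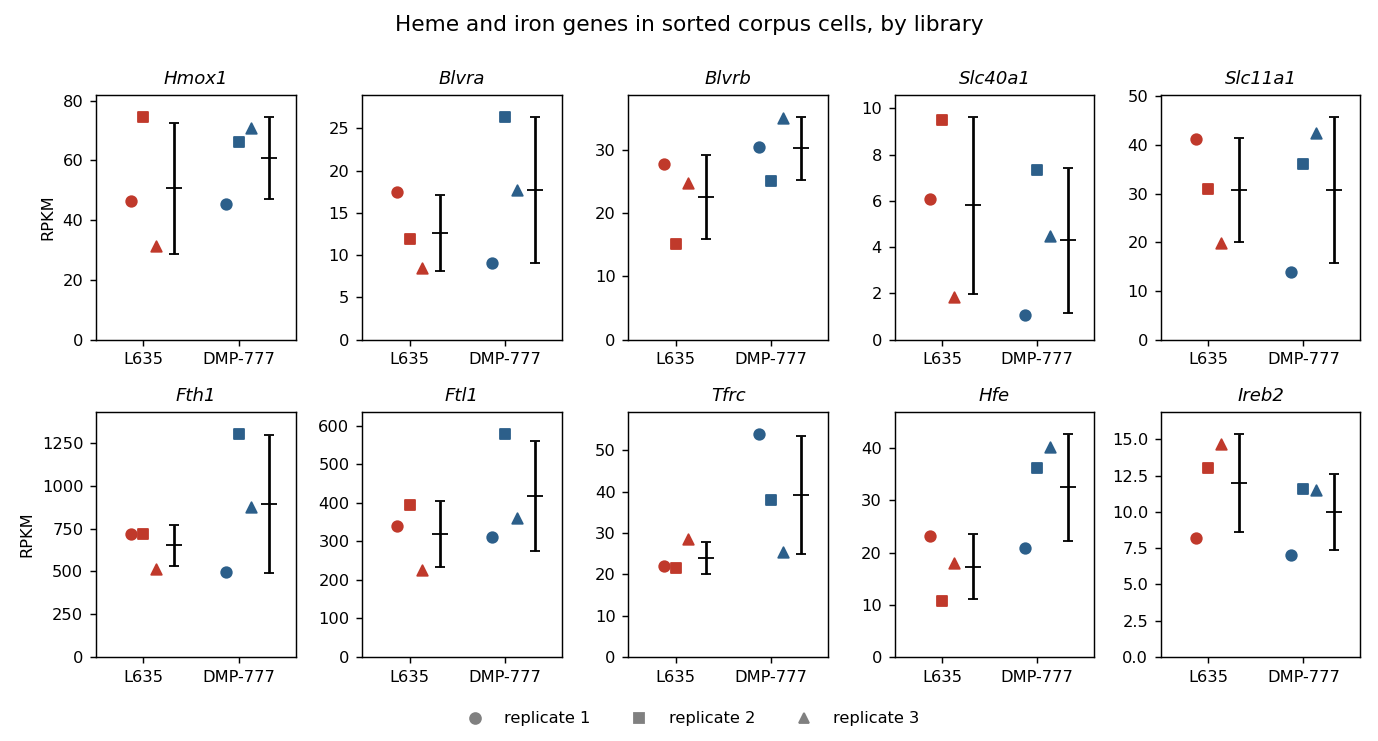
RPKM of the 10 heme and iron genes in each library, on a linear axis from 0, with L635 left and DMP-777 right in each panel. Coloured symbols are libraries, and black bars are the mean ± SD of 3 libraries. The groups overlap in all 10 panels.

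Heme breakdown was represented by high Hmox1 in both treatments. Hmox1, the inducible heme oxygenase (chromosome 8, 75093591 to 75100596, GRCm38), stood at 46.3, 74.6 and 31.3 RPKM in L635 replicates 1, 2 and 3, and at 45.4, 66.1 and 70.9 in DMP-777 replicates 1, 2 and 3. Both the highest and the lowest library belonged to L635, so the groups overlapped fully. Its level exceeded that of 92.7% of the genes tested. It did not pass, at -0.32 ± 0.35 on the log2 scale (SE, limma adjusted p = 0.776), and the 95% interval was -1.08 to 0.44. Leaving out L635 replicate 2 gave -0.64, and leaving out L635 replicate 3 gave -0.02. Relative to Emr1 in the same library, Hmox1 stood at 0.473, 0.587 and 0.758 in L635 replicates 1, 2 and 3, and at 0.986, 0.747 and 0.752 in DMP-777 replicates 1, 2 and 3, which overlapped through L635 replicate 3. Hmox2, the constitutive heme oxygenase, averaged 20.0 ± 3.69 RPKM in L635 and 20.0 ± 4.4 in DMP-777 (SD, n = 3 each).

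Biliverdin, the product of heme oxygenase, is reduced to bilirubin by biliverdin reductases. Blvra, the main adult enzyme (chromosome 2, 127070665 to 127097084), stood at 17.4, 11.9 and 8.42 RPKM in L635 replicates 1, 2 and 3, and at 9.04, 26.3 and 17.7 in DMP-777 replicates 1, 2 and 3. DMP-777 replicate 1 lay near the lowest L635 library, and DMP-777 replicate 2 was the highest of all. Blvrb, which also acts as a flavin reductase (chromosome 7, 27447978 to 27466144), stood at 27.7, 15.1 and 24.7 RPKM in L635 and at 30.4, 25.1 and 35.0 in DMP-777 over the same replicates. Of the L635 libraries, 2 lay below all DMP-777 libraries for Blvrb and 1 did so for Blvra. Log2 fold changes were -0.40 ± 0.43 for Blvra, with a 95% interval from -1.32 to 0.53, and -0.44 ± 0.32 for Blvrb, with an interval from -1.14 to 0.27 (SE, limma adjusted p = 0.770 and 0.665). With 1 library left out, Blvra lay between -0.79 (DMP-777 replicate 1 omitted) and -0.07 (DMP-777 replicate 2 omitted), and Blvrb between -0.60 (L635 replicate 1 omitted) and -0.18 (L635 replicate 2 omitted). The ratio of Blvra to Blvrb in a library, which is free of any single scaling factor per library, was 0.628, 0.793 and 0.340 in L635 and 0.298, 1.05 and 0.507 in DMP-777, and it overlapped as well.

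Transcripts of both ferritin subunits were near the top of every library. Fth1 encodes the heavy subunit, the ferroxidase that oxidises iron for storage (chromosome 19, 9982703 to 9985092). It stood at 722, 719.9 and 514 RPKM in L635 replicates 1, 2 and 3, and at 495, 1304 and 879 in DMP-777 replicates 1, 2 and 3. The L635 libraries lay within the range of the DMP-777 libraries, which spread more widely. The light subunit gene Ftl1 (chromosome 7, 45457944 to 45459884), which helps the iron core form, stood at 339, 395 and 225 RPKM in L635 and at 311, 579 and 359.9 in DMP-777. DMP-777 replicate 2 was the highest library for both subunits. Log2 fold changes were -0.36 ± 0.49 for Fth1 and -0.37 ± 0.40 for Ftl1 (SE, limma adjusted p = 0.824 and 0.776), but 0.34 and 0.04 after quantile normalization. The 95% intervals ran from -1.43 to 0.70 for Fth1 and from -1.24 to 0.50 for Ftl1. The value of Fth1 was -0.73 without DMP-777 replicate 1 and -0.03 without DMP-777 replicate 2.

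Transcripts of the heavy and light subunits stood in a ratio of 1.59 to 2.44 over the libraries. The ratio of Fth1 to Ftl1 was 2.13, 1.82 and 2.28 in L635 replicates 1, 2 and 3, and 1.59, 2.25 and 2.44 in DMP-777 replicates 1, 2 and 3. Its mean on the log2 scale was 1.05 ± 0.17 in L635 and 1.04 ± 0.33 in DMP-777 (SD, n = 3 each). Ferritin genes have processed copies in the mouse genome, and reads can be shared with them, so these levels are uncertain to that extent. Of 7 further ferritin-like genes in the table, 6 lay at the floor in all libraries and the highest value of the other was 1.25 RPKM. The ferritin copies annotated as processed pseudogenes had no listed values, so sharing of reads with them was not tested.

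Ferroportin was the least abundant of the 10 genes and the most variable. Slc40a1, which encodes this iron exporter (chromosome 1, 45908070 to 45925594), stood at 6.07, 9.49 and 1.86 RPKM in L635 replicates 1, 2 and 3, and at 1.08, 7.34 and 4.46 in DMP-777 replicates 1, 2 and 3. The lowest library of each treatment lay close to the floor, and the highest value was 8.81 times the lowest. L635 differed from DMP-777 by 0.39 ± 0.62 on the log2 scale (SE, limma adjusted p = 0.852), with bounds of -0.95 and 1.73 at 95%. It turned to -0.18 without DMP-777 replicate 1 and to -0.02 without L635 replicate 2, and it was 0.92 without L635 replicate 3. About 68 reads stood behind the value in DMP-777 replicate 1, estimated from depth and exonic length. The signal that gave the depth was weakest in this library, so the read number is uncertain.

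Slc11a1 encodes NRAMP1, a metal transporter that moves iron out of the phagosome and is found in macrophages and neutrophils (chromosome 1, 74375203 to 74386062). It stood at 41.2, 31.0 and 19.8 RPKM in L635 and at 13.9, 36.2 and 42.4 in DMP-777 over replicates 1, 2 and 3. The L635 libraries lay inside the DMP-777 range, with means of 30.7 ± 10.7 in L635 and 30.8 ± 15.0 in DMP-777 (SD, n = 3 each). On the log2 scale the difference was 0.07, the 95% interval being -0.84 to 0.99 (limma adjusted p = 0.964). Markers of neutrophils, which also carry this transporter, summed to 160.1, 529 and 166 RPKM in L635 and to 156, 327 and 345 in DMP-777, and their part in the result was not tested. Its sign was negative after median centring, at -0.01, and without DMP-777 replicate 1, at -0.40. Both Slc40a1 and Slc11a1 were lowest in DMP-777 replicate 1 and next lowest in L635 replicate 3, the libraries with the lowest summed macrophage markers (923 and 639 RPKM).

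Iron uptake and sensing were followed through Tfrc, Hfe and Ireb2. Tfrc encodes the transferrin receptor (chromosome 16, 32608920 to 32632794). It stood at 22.1, 21.4 and 28.5 RPKM in L635 replicates 1, 2 and 3, and at 53.9, 37.9 and 25.4 in DMP-777 replicates 1, 2 and 3. L635 replicates 1 and 2 lay below all DMP-777 libraries, and L635 replicate 3 overlapped with DMP-777 replicate 3. On the log2 scale L635 stood at -0.63 ± 0.33 relative to DMP-777 (SE, limma adjusted p = 0.537) and a 95% interval of -1.35 to 0.09. It was -0.37 without DMP-777 replicate 1, the library with the highest Tfrc and the highest sum of surface mucous markers. Without DMP-777 replicate 2, which had the next highest sum, it was -0.62. With the general epithelial level in the fit it was -0.22 ± 0.46 (SE). The part of epithelial cells in the Tfrc values was not tested. The Tfrc difference was -0.78 when the fit included the macrophage level (limma unadjusted p = 0.0209) and -0.90 without DMP-777 replicate 3 (limma unadjusted p = 0.0224). After each library was corrected for gene length and GC content it was -0.82 (limma unadjusted p = 0.0201, adjusted p = 0.517).

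Hfe encodes a relative of MHC class I that binds the transferrin receptor and takes part in the control of hepcidin, and its loss causes hereditary hemochromatosis in humans (chromosome 13, 23702034 to 23710854). It stood at 23.2, 10.8 and 18.0 RPKM in L635 and at 20.9, 36.2 and 40.2 in DMP-777 over replicates 1, 2 and 3. Of the L635 libraries, 2 lay below all DMP-777 libraries, and L635 replicate 1 lay above DMP-777 replicate 1. Means were 17.3 ± 6.25 RPKM in L635 and 32.5 ± 10.2 in DMP-777 (SD, n = 3 each). The log2 fold change of -0.88 ± 0.37 was the largest of the 10 genes and did not pass (SE, limma unadjusted p = 0.0339, adjusted p = 0.453). Its 95% interval ran from -1.68 to -0.08. The sign stayed negative under all alternatives run, from -1.21 with both DMP-777 replicate 1 and L635 replicate 3 left out to -0.59 without L635 replicate 2 (limma unadjusted p = 0.144). The unadjusted p was also above 0.05 without L635 replicate 3 (0.059), without DMP-777 replicate 2 (0.0992), without DMP-777 replicate 3 (0.117), with no filter (0.0693), with no mean-variance trend (0.0576) and with the macrophage or the epithelial level in the limma fit (0.0548 and 0.101). In the limma fits with the macrophage level and without DMP-777 replicate 3, the 1 gene of the 10 at an unadjusted p under 0.05 was Tfrc and not Hfe.

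Ireb2 encodes iron regulatory protein 2, which binds the iron-responsive elements shown above (chromosome 9, 54863755 to 54912534). It stood at 8.22, 13.0 and 14.7 RPKM in L635 and at 7.0, 11.6 and 11.5 in DMP-777 over replicates 1, 2 and 3. L635 replicates 2 and 3 lay above all DMP-777 libraries, and L635 replicate 1 did not. The difference was 0.23 ± 0.39 on the log2 scale (SE, limma adjusted p = 0.863; 95% interval -0.62 to 1.07), and it was -0.07 after the correction for gene length and GC content. Among the mRNAs with an iron-responsive element, the log2 fold changes were -0.36 for Fth1, -0.37 for Ftl1, 0.39 for Slc40a1 and -0.63 for Tfrc, and 0 of these 4 passed with limma (0 at an unadjusted p under 0.05). The ratio of Tfrc to Fth1 was 0.0307, 0.0297 and 0.0554 in L635 and 0.109, 0.0291 and 0.0289 in DMP-777. DMP-777 replicate 1 thus stood apart from the other libraries, with the highest Tfrc and the lowest Fth1 of all.

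**Figure D2:**
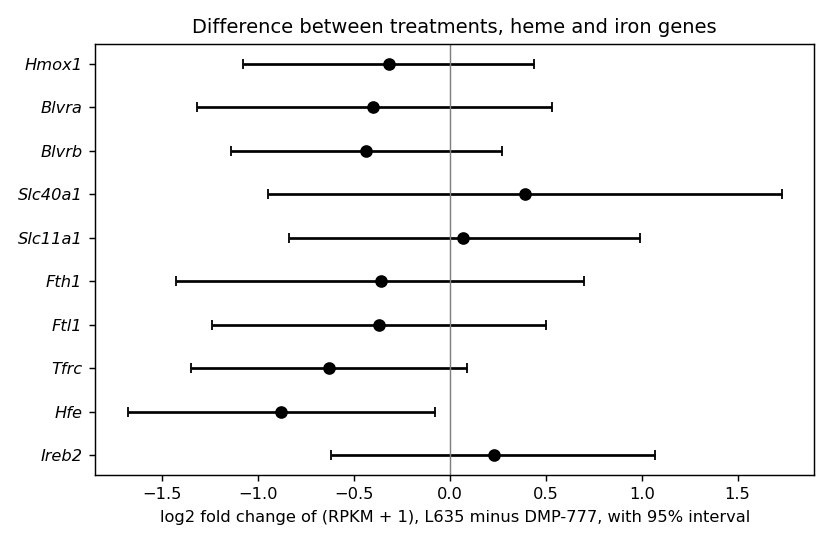
Log2 fold changes of (RPKM + 1) for the 10 genes, L635 minus DMP-777, with 95% intervals from limma (n = 3 libraries each). The interval of Hfe, from -1.68 to -0.08, excludes 0 before adjustment, and those of the other 9 genes include it.

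By level over the 6 libraries, the order was Fth1 (772 ± 298 RPKM, mean ± SD over libraries), Ftl1 (368 ± 118), Hmox1 (55.8 ± 17.2), Tfrc (31.5 ± 12.5), Slc11a1 (30.7 ± 11.6), Blvrb (26.3 ± 6.7), Hfe (24.9 ± 11.2), Blvra (15.1 ± 6.78), Ireb2 (11.0 ± 2.9) and Slc40a1 (5.05 ± 3.23). Fth1 exceeded Ftl1, Ftl1 exceeded Hmox1 and Ireb2 exceeded Slc40a1 in 6 of 6 libraries. Neighbours from Tfrc to Hfe did not differ beyond their spread: Tfrc exceeded Slc11a1 in 3 of 6 libraries, Slc11a1 exceeded Blvrb in 4 and Blvrb exceeded Hfe in 4. Relative to its own mean, the log2 level of the 10 genes averaged 0.03, -0.04 and -0.40 in L635 replicates 1, 2 and 3, and -0.35, 0.48 and 0.27 in DMP-777 replicates 1, 2 and 3. DMP-777 replicate 1 was the lowest library for 4 genes and the highest for Tfrc. The 2 libraries with the lowest average, L635 replicate 3 and DMP-777 replicate 1, were also those with the lowest summed macrophage markers. With the mean log2 level of the macrophage markers as a covariate, the median log2 fold change of the 10 genes was -0.19.

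**Figure D3:**
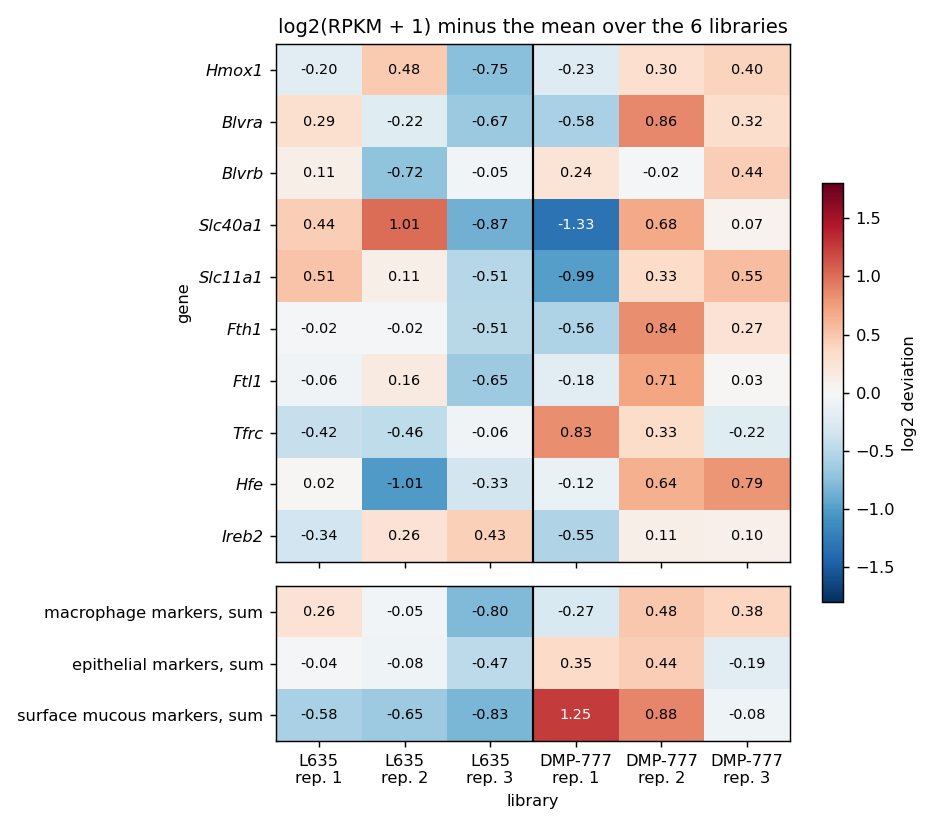
Log2(RPKM + 1) of each gene minus its mean over the 6 libraries, with the L635 libraries left of the black line and the DMP-777 libraries right of it; the lower block shows the summed macrophage, epithelial and surface mucous markers on the same scale. L635 replicate 3 and DMP-777 replicate 1 are low for Slc40a1, Slc11a1, Fth1, Ftl1 and Blvra and for the macrophage markers, and Tfrc is highest in DMP-777 replicate 1.

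Other genes of the same pathways were taken from 4 lists with 60 genes in the table, of which 48 were tested. None of the 48 passed with limma, and 5 were lower and 0 higher in L635 at an unadjusted p under 0.05, against 6.33% lower and 3.78% higher of all genes tested. Of the 48 genes 31 had a lower log2 mean in L635 (64.6%, against 49.8% of all genes tested), and their median was -0.08 on that scale. In the list of iron storage, chaperones and sensing, 8 of 9 tested genes had a lower mean, with a median of -0.40. For 4 of these 9, the L635 libraries lay below all DMP-777 libraries, against 8.75% of all genes tested. Over the 48 genes of the 4 lists, L635 lay below for 5 and above for 0. The shares of all genes tested were 8.75% and 7.25%. Of the lists of heme synthesis and of heme uptake, export and regulation, 10 of 13 and 8 of 12 genes had a lower mean, with medians of -0.24 and -0.07 and 0 genes with separated groups. In the list of iron uptake, transport and release, 5 of 14 were lower, with a median of 0.04.

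Aco1 encodes cytosolic aconitase, which becomes an iron regulatory protein when it loses its iron-sulfur cluster and so is the partner of Ireb2. It stood at 13.7, 7.91 and 13.5 RPKM in L635 replicates 1, 2 and 3, and at 23.7, 22.7 and 20.0 in DMP-777 replicates 1, 2 and 3. The groups did not overlap, and the difference was -0.90 ± 0.34 on the log2 scale (SE; adjusted p = 0.435 with limma). The poly(C)-binding protein Pcbp2, an iron chaperone, stood at 93.2, 65.6 and 53.0 RPKM in L635 and at 114, 156 and 121 in DMP-777. The glutaredoxin Glrx3 stood at 48.3, 30.8 and 40.8 RPKM in L635 and at 75.7, 82.6 and 64.5 in DMP-777. Its partner in the transfer of iron-sulfur clusters, Bola2, stood at 13.3, 9.32 and 14.4 RPKM in L635 and at 24.6, 42.8 and 21.6 in DMP-777. Each of these 3 genes was lower in all L635 libraries than in any DMP-777 library, with log2 fold changes of -0.90, -0.89 and -1.16 (limma adjusted p = 0.419, 0.414 and 0.411). After quantile normalization Pcbp2 stood at -0.42 and Glrx3 at -0.48 (limma unadjusted p = 0.0591 and 0.0603), and Bola2 stood at -1.04. When the fit included the general epithelial level, the values were -0.68 for Aco1, -0.61 for Pcbp2, -0.59 for Glrx3 and -0.76 for Bola2 (limma unadjusted p = 0.196, 0.183, 0.167 and 0.153).

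**Figure D4:**
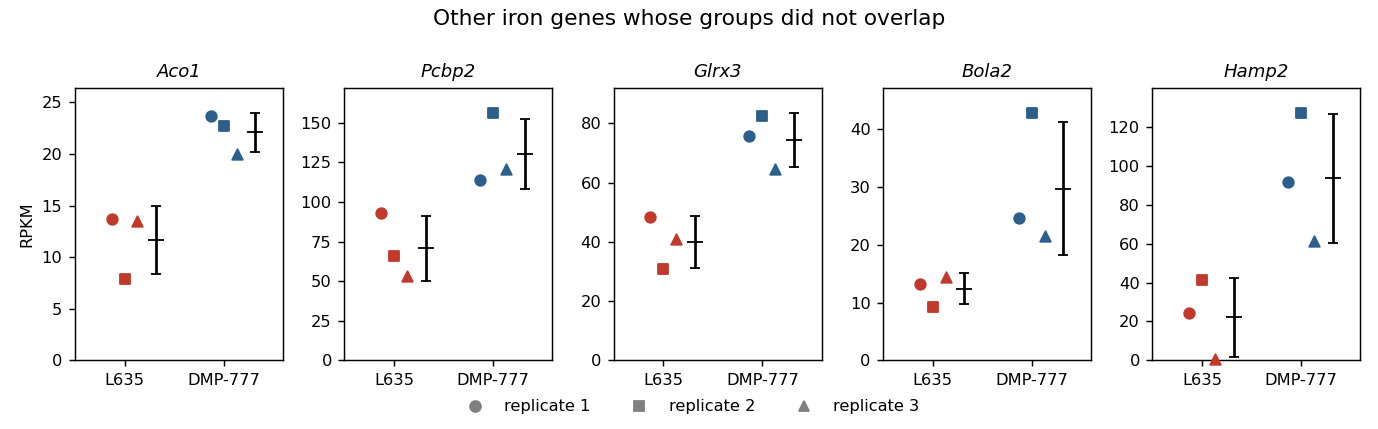
RPKM in each library of the 5 further iron genes whose L635 libraries (left in each panel) all lay below the DMP-777 libraries (right), on a linear axis from 0; black bars are the mean ± SD of 3 libraries. They are 5 of 48 further genes tested, and 8.75% of all genes tested had L635 below in this way. None passed the adjusted threshold, and Hamp2 lies at the floor of 1 RPKM in L635 replicate 3.

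Hepcidin, the hormone that makes ferroportin leave the cell surface, is encoded in the mouse by Hamp. Hamp2 is a close copy of Hamp, and reads can be shared between them. Whether the product of Hamp2 acts on ferroportin was not tested. Hamp2 stood at 24.4, 41.3 and 1.0 RPKM in L635 replicates 1, 2 and 3, the last being the floor, and at 91.5, 127 and 61.5 in DMP-777 replicates 1, 2 and 3. All L635 libraries lay below the DMP-777 libraries. The fit gave -2.81 ± 0.83 on the log2 scale (SE; adjusted p = 0.409 with limma), or -1.47 without L635 replicate 3. It was -1.88 ± 1.13 when the fit included the general epithelial level (SE, limma unadjusted p = 0.122). Hamp lay at 1.0, 7.17 and 1.0 RPKM in L635 and at 2.57, 3.1 and 1.0 in DMP-777, so that it was near the floor in most libraries.

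The remaining named genes of these pathways are described whatever their result. Flvcr1, of the list of heme uptake, export and regulation, was also to be described but had no listed values under that symbol. Ncoa4, the receptor that carries ferritin to the lysosome, averaged 51.5 ± 17.3 RPKM in L635 and 52.3 ± 10.8 in DMP-777. Nfe2l2, a transcription factor that activates Hmox1 and the ferritin genes, averaged 122 ± 14.9 RPKM in L635 and 137 ± 17.7 in DMP-777. Bach1, the heme-sensing repressor of Hmox1, averaged 12.4 ± 1.48 RPKM in L635 and 10.9 ± 2.13 in DMP-777 (SD, n = 3 each). The hemoglobin scavenger receptor gene Cd163 averaged 12.8 ± 7.82 RPKM in L635 and 6.93 ± 1.35 in DMP-777, the highest library being L635 replicate 2 at 21.8 and the next 8.44. Log2 fold changes were -0.05 for Ncoa4, -0.17 for Nfe2l2, 0.19 for Bach1 and 0.67 for Cd163, and those of the heme transporter gene Slc48a1 and the iron importer gene Slc11a2 were -0.08 and -0.56 (limma adjusted p between 0.626 and 0.967). Cd163 was 0.24 without L635 replicate 2, and Slc11a2 was -1.07 with L635 replicate 1 omitted (limma unadjusted p = 0.0499) and -0.23 with L635 replicate 3 omitted. Nfe2l2 and Slc48a1 turned positive after quantile normalization, at 0.37 and 0.02, and Ncoa4 did so at 0.27. Lcn2, which binds iron-carrying siderophores, reached at most 1.94 RPKM. Spic, the factor of iron-recycling red pulp macrophages in the spleen, reached at most 2.34 RPKM and was not tested.

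Erythroid markers were measured by 10 genes, of which 3 lay at the floor in all libraries, and the list summed to 11.9 to 38.1 RPKM in L635 and 10.8 to 31.4 in DMP-777 (exact permutation p = 0.9). The most abundant, the beta globin gene Hbb-b1, stood at 17.7, 12.1 and 1.05 RPKM in L635 replicates 1, 2 and 3, and at 13.7, 14.2 and 1.0 in DMP-777 replicates 1, 2 and 3. The alpha globin gene Hba-a1 reached at most 2.82 RPKM, and Alas2, the heme synthesis enzyme of red cell precursors, lay above the floor in L635 replicate 2 alone, at 1.31. Hmox1 and Slc40a1 were followed across the table for genes of like pattern over the 6 libraries, as a description, since the genes share libraries and depth. By Pearson's r on log2(RPKM + 1), the nearest to Hmox1 were Cd9, Nccrp1 and Ptma (0.993, 0.982 and 0.965), and the nearest to Slc40a1 were Lyz1, Tmem180 and Slc27a4 (0.988, 0.988 and 0.973). With 6 libraries, 32 tested genes reached an r above 0.9 with Hmox1 and 31 did so with Slc40a1.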

How the data were processed

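Total RNA of the sorted cells was amplified, fragmented and sequenced as single-end reads, per the labels' protocols. The submitters' processing notes list FastQC, TopHat 1.4, SAMtools and the build mm9. Which tool made the values was not found in the labels. The authors deposited normalized values, recognised here as RPKM because value times exonic length clusters at whole multiples of one library-specific unit; this unit gave the depths, and its signal was weak, so whole reads were not recovered and no count test was run. Of genes with a GENCODE M21 identifier, 99.8% overlap that gene in GRCm38, so coordinates are given in that build. There were 0 columns of sample values left unused.

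For each gene, L635 minus DMP-777 was tested in limma 3.58.1 (R 4.3.3) after taking log2(RPKM + 1) (mean-variance trend, two-sided, Benjamini-Hochberg over 12102 genes above 1 RPKM in at least 3 libraries), which also understates changes of low genes. The fit was tested on simulated data. Title numbers are sample identifiers, and replicates were numbered within each group. The genes, the lists and the rule for named genes were chosen with earlier results of these data known. That rule took the 10 genes, a set of pathway genes whatever their result, those of the lists with separated groups and the smallest p (up to 4 in a direction), defining markers, and the 3 genes most like Hmox1 and Slc40a1 without predicted genes. Alternatives covered the pseudocount, filter, scaling, length and GC content, trend, weights, marker covariates and each library left out; leaving out the 2 libraries lowest in macrophage markers was added after seeing the data.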

Additional observations from a re-analysis of the deposited data

How the results depend on the processing

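No paired analysis was possible because title numbers identify single samples and none occurs in both treatments. No gene of the 10, of the 48 further pathway genes or of all genes tested passed an adjusted p of 0.05 with limma under any alternative run. Hmox1, Blvra, Blvrb, Tfrc and Hfe, and of the other named genes Slc11a2, Hamp2, Pcbp2, Glrx3, Bola2, Aco1 and Cd163, kept their direction under all of them. With 1 library left out, genes at an unadjusted p under 0.05 numbered 622 to 1581 (main value 1223) over all genes and 0 to 1 of the 10, and the median of the 48 ran from -0.23 to -0.05. Of the 10, the number was 0 with no filter (1204 over all genes) and with no mean-variance trend (1142). It was 0 with the epithelial covariate (145 over all genes) and 2 with the length and GC trend removed (1108 of 12002 genes). With both DMP-777 replicate 1 and L635 replicate 3 left out it was 604 over all genes, and the median of the 48 was -0.20. Genes higher in L635 made up 37.4% of those at an unadjusted p under 0.05, or 26.5% after median centring and 47.1% after quantile normalization.

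Quantile normalization moved the median of the 10 genes to 0.01 and turned Fth1 (0.34), Ftl1 (0.04), Ncoa4 (0.27), Slc48a1 (0.02) and Nfe2l2 (0.37); the cause was not tested for this or the changes that follow. Median centring turned Slc11a1 (-0.01), Hamp (-0.04) and Hmox2 (-0.07). Removing the length and GC trend turned Ireb2 (-0.07), Lcn2 (0.11) and Slc48a1 (0.05). Array weights turned Slc11a1 (-0.10), Hamp (-0.07) and Hmox2 (-0.0014), and a pseudocount of 0.1 turned Hamp (-0.03). The macrophage covariate turned Lcn2 (0.04), Hamp (-0.08), Slc48a1 (0.21) and Hmox2 (-0.03), and the epithelial covariate Slc11a1 (-0.19), Ireb2 (-0.14), Slc48a1 (0.25) and Bach1 (-0.09). With both of these libraries left out, Slc11a1 (-0.13), Ireb2 (-0.15), Lcn2 (0.03), Ncoa4 (0.31), Bach1 (-0.03) and Nfe2l2 (0.01) turned. With 1 library left out, Slc40a1 ranged from -0.18 to 0.92, Slc11a1 from -0.40 to 0.37, Lcn2 from -0.24 to 0.08, Hamp from -0.62 to 0.39, Ncoa4 from -0.30 to 0.17, Slc48a1 from -0.51 to 0.33 and Hmox2 from -0.16 to 0.16. Summed markers differed between L635 and DMP-777 by -7892 to -4096 RPKM for surface mucous cells, by -486 to -105 for macrophages and by -426 to -189 for general epithelium over the same omissions. The floor and 3 libraries per treatment limit what low genes such as Slc40a1 can show.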
